A study of Arabidopsis thaliana with 28 samples.

Results

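Developing leaves of Arabidopsis thaliana were compared between 24 h and 2 h of a treatment with low light at ambient CO2. The comparison holds 8 replicates, 4 at each time, on 9 of the 28 ATH1 arrays used here, because replicate 1 at 24 h was measured on a pair of arrays that were averaged. The arrays were assigned by their titles alone, while the comparison itself was chosen with earlier results of these data known. All plants were of the accession Col-0, grown on compost in a growth room at 20 °C and 50% humidity with a 10 h light period, and the leaves came from insertions 19 to 21. Both groups therefore share genotype, leaf position, light regime and CO2, and differ in the time since the treatment began. Other developing leaves of the same treatment were taken after 4, 12, 48 and 96 h, again with 4 replicates each. Mature leaves at 24 h, with 2 replicates, were in neither compared group. They entered the shared estimate of the spread and the filter on low signals. The series concerns how information on irradiance and CO2 travels from one leaf to another. Neither untreated nor high-light samples entered, so a difference between 24 h and 2 h is one of time and gives no effect of low light. At what hour of the day the leaves were cut is not stated in the labels, so time in treatment and time of day cannot be told apart. Nothing in the labels says that replicates came from separate plants, so the p-values speak of the spread between these arrays, which may be technical.

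A young leaf draws on sugars made in the light and on starch broken down in the dark, and many of its transcripts follow light, sugar supply and the circadian clock. When sugar runs low, the kinase SnRK1 raises transcripts for the recycling of proteins, lipids and amino acids, among them a small set widely used as markers of low energy. Chaperones of the HSP70 family fold newly made proteins with DnaJ-domain partners, and flavonols are light-screening pigments whose synthesis is raised by the transcription factors HY5 and HYH.

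Signals are given in the linear units of the MAS5 algorithm, which were scaled so that the 2% trimmed mean was 100.01 on each of the 9 arrays. The array medians lay between 41.1 and 46.5. Between the 2 arrays titled replicate 1 at 24 h, the log2 difference had an SD of 0.337, within the range of the other pairs at 24 h (0.307 to 0.454). The log2 ratio of the actin 3' to 5' control probe sets, a measure of how intact the RNA was, stood at 2.41, 3.08, 1.92 and 2.82 at 2 h and at 1.71, 1.96, 2.07 and 1.73 at 24 h. Its mean was 0.69 lower at 24 h (-0.69, two-sided exact permutation p = 0.086, n = 4 at each time), while the second actin pair of control probe sets differed by 0.13 (exact permutation p = 0.4) and GAPDH by 0.08 (exact permutation p = 0.8). Adjusted over these 3 control pairs the p-values were 0.26, 0.6 and 0.8, and the smallest raw p that 4 against 4 allows is 0.029. The part of this ratio in the results below was not tested. As a check of the tissue, the 3 light harvesting genes and 5 photosystem genes tested had mean signals at 2 h from 384 to 3185, far above the array median. The markers listed for flower, epidermis and vasculature had no named probe set here, the meristem marker CLV3 was not above the filter on low signals, and the guard cell marker GC1 (AT1G22690) had 190, 83.5, 112 and 101 at 2 h and 142, 106, 86.1 and 77.2 at 24 h (adjusted p = 0.63). In such bulk tissue, fewer cells of a type and less RNA per cell cannot be told apart.

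Of 13647 probe sets tested, 1657 passed an adjusted p of 0.05 between 24 h and 2 h, or 12.1%. At 24 h 798 were higher (5.85%) and 859 lower (6.29%). Most of these changes were small, with a median log2 change of 0.51 among the rises and -0.50 among the falls. A change of at least 2-fold was seen in 136 probe sets, or 0.997% of those tested, 67 of them rises and 69 falls, and with a pseudocount of 50 in place of 10 the count was 64 (37 rises and 27 falls). All tested probe sets together had a median of 0.01. The 4 values at 24 h did not overlap the 4 at 2 h in 2081 probe sets (15.2%), of which 1347 were called. Bright probe sets were called more often, with 6.05% called in the lowest of 3 equal bins of signal, 11.7% in the middle bin and 18.7% in the highest. The gene table names a single gene for 7434 of the tested probe sets, of which 785 were called (10.6%), while 872 of the 6213 others were (14%). Thus 74 of the 136 changes of at least 2-fold, and the largest change in each direction (log2 4.57 and -2.96), belong to probe sets without a name here.

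**Figure D1:**
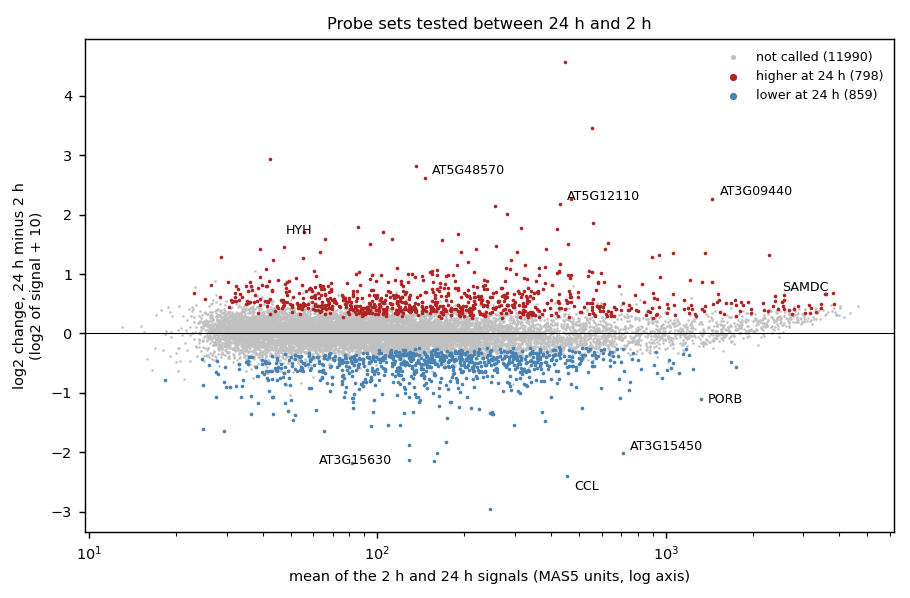
Log2 change from 2 h to 24 h of each of the 13647 tested probe sets (vertical axis, log2 of signal plus 10) against the mean of both groups' signals (log axis, MAS5 units). Red points were higher at 24 h (798), blue points lower (859) and grey points not called, and the labels mark 9 genes described in the text.

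Chaperone transcripts stood at the head of the named rises. Both tested members of the HSP70 list, which held 11 loci, rose. The gene lists were drawn up with results of these data known. Beside the counts of list members stand 5.85% of all tested probe sets that rose and 6.29% that fell. AT3G09440, a cytosolic HSP70, had signals of 459, 488, 509 and 504 at 2 h and 2138, 2686, 2248 and 2569 at 24 h (log2 change 2.27 ± 0.09, adjusted p = 1.4e-15). On the scale of signal plus 10 this was a 4.82-fold rise, and the samples of each time lay close together. Hsp70-2 (AT5G02490), its close relative, had 65.3, 72.7, 92.6 and 89.2 at 2 h and 272, 259, 236 and 253 at 24 h (log2 change 1.57 ± 0.11, adjusted p = 3e-11). For neither gene did a 2 h value reach a 24 h value, which was a condition for the 25 largest rises, to which both belong. Genes of this family are alike in sequence, and whether a probe set also takes up transcripts of a close relative was not tested.

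Of the 4 tested co-chaperones, from a list of 10 loci, 2 rose and 2 did not pass, with a list median of 0.92. AT5G48570, a peptidyl-prolyl isomerase of the FKBP type that binds HSP90 (ROF2), had 45, 32.4, 26.6 and 28 at 2 h and 379, 243, 210.2 and 204 at 24 h (log2 change 2.62 ± 0.20, adjusted p = 2e-10), with replicate 1 the highest at both times. The DnaJ-domain gene AT2G20560 was near background at 2 h and clearly above it at 24 h, with 15.9, 21.2, 15.7 and 14.4 at 2 h and 77, 61.5, 51 and 57.6 at 24 h (log2 change 1.42 ± 0.17, adjusted p = 1.5e-06). Its 2 h level lay below the filter signal of 27.8, which the gene passed only by its mean over all groups. Hop1 and Hop2 encode proteins that pass clients from HSP70 to HSP90. Hop1 differed by -0.18 ± 0.11 (adjusted p = 0.3) and Hop2 by 0.42 ± 0.15 (adjusted p = 0.059). In Hop2 the 24 h replicate 1 stood apart at 197.9 against 294.9 to 313.1 in the others, and without it the adjusted p was 0.0072. Hop2 passed in 8 of 22 alternatives, also with quantile normalization (0.033), array weights (0.024), the replicate block (0.046), a pseudocount of 50 (0.049), the filter at the 60th percentile (0.049), the first array of 24 h replicate 1 (0.046) and no replicate 1 in any group (0.030).

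Small heat shock proteins bind unfolding proteins, and 1 of the 2 tested rose. Their list held 14 loci, of which 7 had a named probe set. Apart from the 2 tested, these were not above the filter on low signals. AT1G54050 had 212, 248, 207 and 194 at 2 h and 552, 445, 431 and 286 at 24 h (log2 change 0.93 ± 0.15, adjusted p = 8.8e-05), and ATHSP22.0, of the endoplasmic reticulum, had -0.04 ± 0.21 (adjusted p = 0.94). SGT1A, which works with HSP90 in the stability of immune receptors, had 122, 96.5, 114 and 88.6 at 2 h and 182, 230.4, 213 and 245 at 24 h (log2 change 0.98 ± 0.15, adjusted p = 3.8e-05). In the other folding lists no member passed. None of the 3 tested genes of folding in the endoplasmic reticulum passed, their changes lying between -0.25 (AT5G07340, a calnexin) and -0.08 (ATERDJ3B). The plastid chaperonin Cpn60beta2 had a mean of 1175 at 2 h and 1168 at 24 h (log2 change -0.004, adjusted p = 0.98). Heat shock factors and the HSP90 and HSP100 families had no named probe set tested.

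Among the largest changes, genes of DnaJ-domain proteins, which hand clients to HSP70, went both ways. AT3G14200 rose with 7.74, 32.7, 18.9 and 27 at 2 h and 57.1, 89.97, 87.8 and 59.8 at 24 h (log2 change 1.46 ± 0.20, adjusted p = 6.7e-06). AT1G56300 went the other way, with 58.8, 52.9, 44.2 and 74 at 2 h and 19.5, 23.9, 15.7 and 19.2 at 24 h (log2 change -1.18 ± 0.16, adjusted p = 6.9e-06). The 2 groups did not overlap in either gene, which was a condition for the 25 largest rises and falls. The 2 h mean of AT3G14200 (21.6) and the 24 h mean of AT1G56300 (19.6) lay below the filter signal of 27.8. Among the rises near chaperones was also AT1G30070, with an SGS domain like that of SGT1, at 103, 85, 109.8 and 102 at 2 h and 207, 207, 224 and 204 at 24 h (log2 change 1.01 ± 0.12, adjusted p = 8.5e-07).

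In the list of 16 flavonoid genes 4 of the 6 tested members rose and none fell, beside 5.85% and 6.29% of all probe sets. The list median was 0.65 against 0.01 for all probe sets. AT1G06000, a flavonol rhamnosyltransferase, had 282, 354, 339 and 337 at 2 h and 926, 1015, 753 and 913 at 24 h (log2 change 1.43 ± 0.14, adjusted p = 7.2e-08). UGT78D1, which adds rhamnose to flavonols, had 201, 201, 181 and 202 at 2 h and 356, 377, 282 and 363 at 24 h (log2 change 0.77 ± 0.15, adjusted p = 0.001). CHIL, a protein that helps chalcone synthase make the right product, had 153, 213, 226 and 196 at 2 h and 382, 397, 283 and 300 at 24 h (log2 change 0.76 ± 0.17, adjusted p = 0.0038). In all 3 the lowest 24 h value lay above the highest 2 h value. For AT1G06000, among the 25 largest rises, this was a condition of the choice.

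UGT78D2, a flavonoid glucosyltransferase, had 152, 163, 179.5 and 169.9 at 2 h and 209.6, 297, 241 and 238 at 24 h (log2 change 0.53 ± 0.17, adjusted p = 0.04). Its call ended in 9 of 22 alternatives. These were no filter (0.075), median centring (0.08) and the fits that left out any 1 of the 2 h replicates (0.054 to 0.09) or 24 h replicate 2, 3 or 4 (0.14, 0.065 and 0.068). DFR and UF3GT act on the anthocyanin side of the pathway. DFR differed by -0.003 (adjusted p = 0.996) and UF3GT by 0.14 (adjusted p = 0.70). HYH, the bZIP factor that acts with HY5, was the tested member of the flavonoid regulators, with 21.4, 24.5, 27.6 and 40.02 at 2 h and 108, 102, 97.9 and 107 at 24 h (log2 change 1.59 ± 0.14, adjusted p = 8.2e-09). Every 2 h value lay below the lowest array median and every 24 h value far above it. No overlap between the times was a condition for the 25 largest rises, to which HYH belongs. AT1G23390 encodes a kelch F-box protein that marks chalcone synthase for breakdown, and it fell with 537, 338, 309 and 258 at 2 h and 133, 119.9, 129 and 143 at 24 h (log2 change -1.34 ± 0.19, adjusted p = 1.6e-05).

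In the list of methionine use 3 of 4 tested members rose, beside 5.85% of all probe sets, with a list median of 0.87. The list held 22 loci. MGL, methionine gamma-lyase, which breaks methionine down, had 26.8, 54.1, 51.1 and 43 at 2 h and 236, 148, 131 and 146 at 24 h (log2 change 1.70 ± 0.20, adjusted p = 8.5e-07). S-adenosylmethionine decarboxylase makes the aminopropyl donor of the polyamines spermidine and spermine, and both of its tested genes rose. AT5G15950 had 167, 153, 233 and 144 at 2 h and 392, 296, 475 and 375 at 24 h (log2 change 1.10 ± 0.15, adjusted p = 6.1e-06), and the far brighter SAMDC (AT3G02470) had 1791, 1861, 1819 and 2033 at 2 h and 3310, 2628, 2874 and 2849 at 24 h (log2 change 0.63 ± 0.10, adjusted p = 4.1e-05). HMT-1, a homocysteine methyltransferase, differed by 0.10 ± 0.13 (adjusted p = 0.67).

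Some genes of sulfur and nitrogen supply rose too. AT1G04770 (SDI2), a gene known for its rise under sulfur deficiency, had 72.6, 55.3, 41.9 and 44.8 at 2 h and 114, 93.5, 122 and 147 at 24 h (log2 change 1.03 ± 0.20, adjusted p = 0.00072). SIR, sulfite reductase, had 400.1, 432, 442 and 392 at 2 h and 443, 505, 572 and 515 at 24 h (log2 change 0.28 ± 0.08, adjusted p = 0.029), and it was the 1 of 3 tested sulfate reduction genes that passed. That call ended with median centring (0.10) and with only the compared groups in the fit (0.13). It also ended when 2 h replicate 1 (0.065) or 4 (0.089) was dropped, or 24 h replicate 2 (0.057), 3 (0.11) or 4 (0.066). The ATP sulfurylase gene APS3 had 0.49 ± 0.16 and an adjusted p of 0.0505, and it passed in 7 of 22 alternatives. These were the replicate block (0.015), both arrays of 24 h replicate 1 separately (0.014) or the first alone (0.047), the filter at the 60th percentile (0.042), a pseudocount of 50 (0.045), and the fits without 24 h replicate 4 (0.012) or 2 h replicate 3 (0.0082). AT2G26690, of the nitrate transporter family, had 132, 98.1, 88.4 and 72.5 at 2 h and 266, 182, 192 and 209 at 24 h (log2 change 1.06 ± 0.14, adjusted p = 5.4e-06). AT3G21670 (NPF6.4), of the same family, was the 1 tested of 15 loci in the nitrogen list. It went from 370.2 ± 13.6 at 2 h to 569 ± 37.7 at 24 h (log2 change 0.61 ± 0.13, adjusted p = 0.0015). AT1G04770 and AT2G26690 are named because they were among the 25 largest rises, and the transporter family was not counted.

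The 25 largest rises included 5 genes known from the cell wall or from leaf growth, which no list had grouped. TBL26, of the family that acetylates wall polysaccharides, had 74, 162, 112 and 73 at 2 h and 405, 285, 173 and 279 at 24 h (log2 change 1.37 ± 0.21, adjusted p = 3.6e-05). Of 14 tested TBL genes 2 rose, 1 fell and 5 had a positive change, with a median of -0.09. AT1G23205, of the family that inhibits invertase and pectin methylesterase, had 102, 123, 123 and 132 at 2 h and 353, 283, 274 and 256 at 24 h (log2 change 1.21 ± 0.11, adjusted p = 4.9e-09). AT1G48100, a polygalacturonase, had 55.7, 66.2, 63 and 76.5 at 2 h and 104, 141, 153 and 163 at 24 h (log2 change 0.98 ± 0.13, adjusted p = 8.5e-06). The endoglucanase family gene GH9B8 went from 60.8 ± 16.8 at 2 h to 130.2 ± 34.4 at 24 h (log2 change 0.98 ± 0.16, adjusted p = 9.1e-05), and of 7 tested GH9 genes 2 rose and none fell, with a median of 0.12. Beside the TBL and GH9 counts stand 5.85% of all tested probe sets that rose and 6.29% that fell. So few calls are no result about either family. EXO, a brassinosteroid-responsive gene that promotes leaf growth, went from 309.6 ± 18.8 at 2 h to 629.6 ± 109.7 at 24 h (log2 change 0.99 ± 0.13, adjusted p = 5.4e-06). In each of these 5 genes both groups were apart without overlap, which was a condition for the 25 largest rises.

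In the list of shade, auxin and expansion genes 1 of 4 passed. This was HAT2, an auxin-induced homeobox gene, with 47.4, 36.4, 40.7 and 47 at 2 h and 71.7, 70.3, 54.7 and 57.6 at 24 h (log2 change 0.48 ± 0.14, adjusted p = 0.021). The call was lost on dropping 24 h replicate 1 (0.071) or replicate 2 (0.068), and on dropping 2 h replicate 2 (0.076) or replicate 3 (0.053). EXPA4, EXPA8 and IAA29 had changes between -0.11 and 0.14. IAA29 had 1 value, 48.9 in 2 h replicate 1, far above the others at that time (17.3 to 20.2).

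The strongest of the remaining rises was AT5G12110, a subunit of the translation elongation factor eEF1B, with 214, 119, 108 and 174 at 2 h and 775, 691, 688 and 673 at 24 h (log2 change 2.18 ± 0.20, adjusted p = 1.1e-08). AT2G41410, a calmodulin-like calcium-binding protein, had 241, 117, 223 and 231 at 2 h and 418, 438, 482 and 455 at 24 h (log2 change 1.15 ± 0.19, adjusted p = 0.00011), with 2 h replicate 2 apart from the other 2 h values. ATSPS4F, a sucrose phosphate synthase, had 38.8, 20.02, 17.8 and 15 at 2 h and 84.2, 57.1, 45.1 and 50.01 at 24 h (log2 change 1.09 ± 0.19, adjusted p = 0.00029). The weakest case was MT1C, a metallothionein, which had 16.2, 9.76, 4 and 20.01 at 2 h and 35.5, 37.2, 74.2 and 32.5 at 24 h (log2 change 1.28 ± 0.40, adjusted p = 0.035). MT1C lost its call in 8 of 21 alternatives, among them a pseudocount of 50 (0.073) and no filter (0.077). On dropping 24 h replicate 2 the adjusted p was 0.055, on dropping replicate 3 of either time 0.12, and on dropping 2 h replicate 2 it was 0.077. The others among the 25 were AT3G07090, of a predicted peptidase family (log2 change 1.43 ± 0.11), AT4G36640, a Sec14-like lipid transfer protein (1.04 ± 0.11), and AT3G28270 (1.24 ± 0.24). The 2 h means of ATSPS4F (22.9), MT1C (12.5) and AT3G28270 (20.5) lay below the filter signal of 27.8. The plot of the signals by replicate shows all 25.

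**Figure D2:**
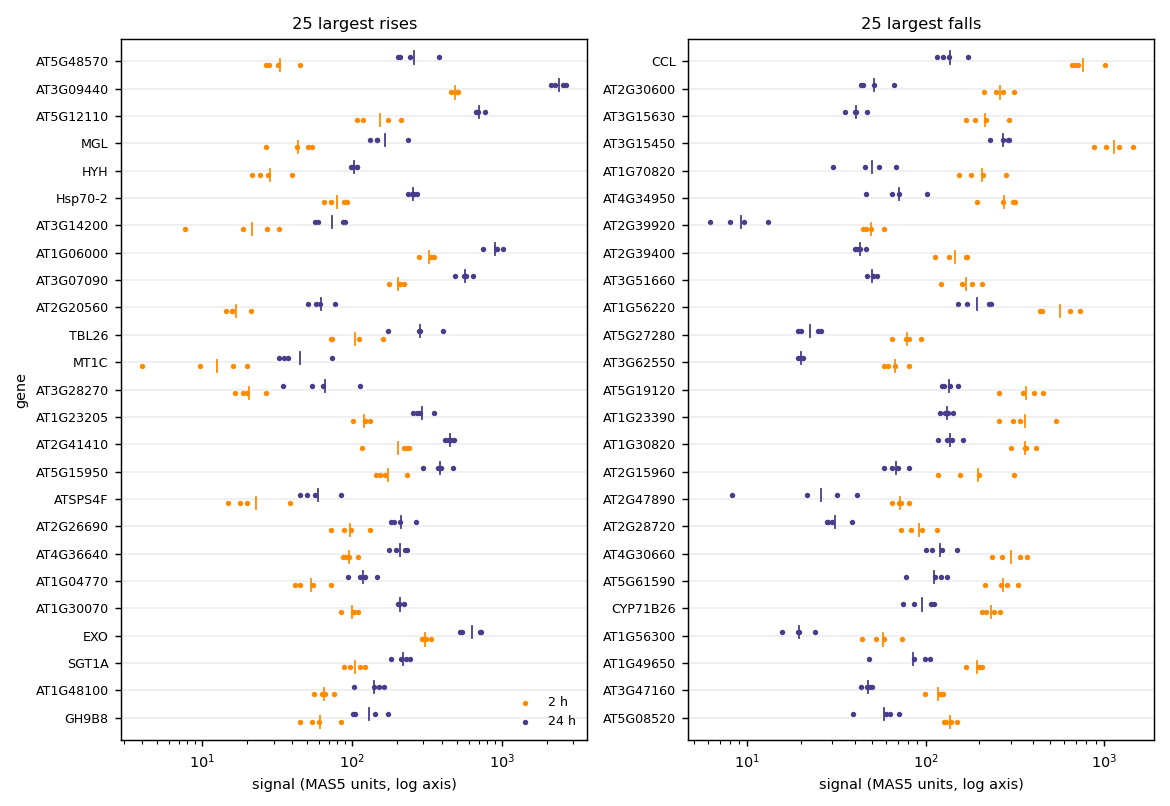
Signals of the 25 genes with the largest rises (left) and the 25 with the largest falls (right), ordered by size, on log axes in MAS5 units. Orange points are the 4 replicates at 2 h, blue points the 4 at 24 h and vertical ticks the means, and in each gene the 2 colours do not overlap because that was a condition of the choice.

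Most tested markers of low sugar supply fell. Of 7 tested members, from a list of 33 loci, 5 fell and none rose, beside 6.29% and 5.85% of all probe sets. The list median was -1.48, and the list was drawn up with results of these data known. AT3G15450, a marker transcript of low light and low energy, had 1463, 1223, 1030 and 877 at 2 h and 291, 232, 295 and 272 at 24 h (log2 change -2.02 ± 0.18, adjusted p = 4.8e-09). AT3G15630 had 292, 217, 189 and 168 at 2 h and 35.2, 40.9, 39.97 and 46.9 at 24 h (log2 change -2.14 ± 0.16, adjusted p = 2e-10), with the highest 24 h value well under the lowest 2 h value. No overlap was a condition for the 25 largest falls, to which AT3G15630 belongs. AT2G30600, with a BTB domain, had 314, 272, 250 and 212 at 2 h and 66.6, 44.6, 51.5 and 43.6 at 24 h (log2 change -2.14 ± 0.20, adjusted p = 1.4e-08). A second probe set of AT2G30600 fell by 1.55 on the log2 scale. The other 2 falls were smaller.

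AT1G56220, of the dormancy and auxin associated family, had 734, 648, 440.4 and 453 at 2 h and 227, 171, 232 and 153 at 24 h (log2 change -1.48 ± 0.15, adjusted p = 8.4e-08). AKINBETA1, a beta subunit of SnRK1 itself, had 205, 156, 163 and 139 at 2 h and 142, 83.4, 86.2 and 95.1 at 24 h (log2 change -0.67 ± 0.16, adjusted p = 0.0067), and here 24 h replicate 1 reached 142.5 and overlapped the 2 h values. BZIP53, a transcription factor of the low energy response, differed by -0.25 (adjusted p = 0.18), and the ubiquitin ligase gene ATL8 by -0.35 (adjusted p = 0.077).

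Leucine breakdown, starch breakdown and autophagy also supply carbon or recycle cell material, and 2 of 5, 1 of 2 and 2 of 14 tested members fell, beside 6.29% of all probe sets, and none rose. The list medians were -0.05, -0.40 and -0.15. Both subunits of methylcrotonyl-CoA carboxylase in leucine breakdown fell, as 2 of 5 tested members of that list. MCCA had 54.5, 62.8, 57.5 and 52.9 at 2 h and 25, 34.2, 26.6 and 31.4 at 24 h (log2 change -0.77 ± 0.14, adjusted p = 0.00049). MCCB had 214, 226, 198 and 251 at 2 h and 116, 149, 185 and 125 at 24 h (log2 change -0.61 ± 0.16, adjusted p = 0.012), and an adjusted p of 0.053 without 24 h replicate 1. The other 3, IVD, ETFQO and D2HGDH, had changes from -0.05 to 0.10 and none passed.

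DPE1, the plastid enzyme that works on maltotriose in starch breakdown, had 128, 141, 113 and 109 at 2 h and 54, 61.7, 67.3 and 82.8 at 24 h (log2 change -0.80 ± 0.12, adjusted p = 4.8e-05). PWD, the phosphoglucan water dikinase that marks starch for breakdown, stood at 182, 143, 171 and 154 at 2 h and 143, 155, 169 and 186 at 24 h (adjusted p = 0.99). In starch synthesis neither tested gene passed. APL3 differed by -0.04 ± 0.16 (adjusted p = 0.92) and the branching enzyme SBE2.2 by -0.44 ± 0.16 (adjusted p = 0.066), with 24 h replicate 1 apart at 112.2 against 183.3 to 189.3, and SBE2.2 passed with both arrays of that replicate as separate samples (0.031).

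ATG8 proteins coat the membrane of the autophagosome, and 2 of the 14 tested autophagy genes fell, both of that family, with a list median of -0.15. Beside the 6.29% of all tested probe sets that fell, so few calls are no result about the list, and neither call held in all alternatives. ATG8E had 204, 94.9, 118 and 149 at 2 h and 106, 59.6, 62.5 and 37.1 at 24 h (log2 change -1.01 ± 0.26, adjusted p = 0.009), overlapping between the groups, and an adjusted p of 0.052 without 24 h replicate 4. ATG8H had 47.6, 36.3, 42.3 and 44.8 at 2 h and 31.2, 25.6, 26.1 and 30.6 at 24 h (log2 change -0.46 ± 0.15, adjusted p = 0.046). The call of ATG8H ended in 11 of 21 alternatives, a pseudocount of 50 (0.071) and no filter (0.086) among them. It ended on dropping any 1 of the 24 h replicates (0.056, 0.11, 0.097 and 0.063) and on dropping 2 h replicate 1 (0.11), replicate 3 (0.082) or replicate 4 (0.10). ATG8F differed by -0.35 ± 0.12 (adjusted p = 0.064) and passed in 5 of 22 alternatives, namely without 2 h replicate 2 (0.036) or replicate 3 (0.031), with the replicate block (0.033), with array weights (0.045) and with the first array of 24 h replicate 1 (0.046). The gene named APG8H (AT3G15580, ATG8I) differed by -0.30 ± 0.11 (adjusted p = 0.082) and passed in 5 of 22, with the replicate block (0.0077), array weights (0.045), the first array of 24 h replicate 1 (0.035), no replicate 1 in any group (0.045) and no 24 h replicate 1 (0.035). The remaining 10 autophagy genes, among them ATG8A to ATG8D and ATG8G, had changes between -0.24 and 0.24.

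CCL, a transcript of the clock-controlled CCR-like family, had the largest fall of a named gene. Its signals were 1012, 667, 688 and 712 at 2 h and 174, 126, 116 and 135 at 24 h (log2 change -2.40 ± 0.15, adjusted p = 9.3e-12), with 2 h replicate 1 above the other 2 h values. GI, an evening component of the clock, had 63, 73.5, 75.3 and 65.5 at 2 h and 44.4, 41.7, 51.5 and 65.2 at 24 h (log2 change -0.40 ± 0.12, adjusted p = 0.03), and 24 h replicate 4 lay within the 2 h range. GI lost its call in 7 of 21 alternatives, namely no filter (0.052), only the compared groups (0.089) and no replicate 1 in any group (0.067). It was lost too on dropping 24 h replicate 1 (0.094) or replicate 2 (0.11), and 2 h replicate 2 (0.077) or replicate 3 (0.087). The other clock gene tested, AT5G52660 (RVE6), differed by 0.16 ± 0.11 (adjusted p = 0.44). AT5G08520 (MYBS2), a MYB factor that acts on sugar-responsive promoters, fell with 127, 149.8, 139 and 131 at 2 h and 39.4, 60, 71 and 63.5 at 24 h (log2 change -1.12 ± 0.29, adjusted p = 0.011).

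Of 7 tested genes of chlorophyll synthesis 2 fell and none rose, beside 6.29% and 5.85% of all probe sets. The list held 22 loci. PORB, the protochlorophyllide oxidoreductase that carries out the light-dependent step, had 2000, 1831, 1480 and 1930 at 2 h and 733, 869.8, 797 and 938 at 24 h (log2 change -1.10 ± 0.14, adjusted p = 1.6e-06), a 2.15-fold fall on the scale of signal plus 10. CHLI2, the minor ATPase subunit of magnesium chelatase, had 253, 339, 269 and 320 at 2 h and 204, 216, 198 and 180.1 at 24 h (log2 change -0.54 ± 0.13, adjusted p = 0.0066). Both were lower in all 4 samples at 24 h than in any at 2 h. CHLM, which acts between those steps, went from 1326 ± 158 at 2 h to 1270 ± 67.4 at 24 h (adjusted p = 0.79), and AT1G74470 (CHLP), which makes the phytol side chain, differed by 0.22 ± 0.10 (adjusted p = 0.19). HEMA2, GSA1 and HEMB1, which act early in the pathway, had changes between -0.17 and -0.05, none of which passed.

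The 25 largest falls also held genes of 2 transcription factors and a histone. AT2G47890, of the B-box zinc finger family that includes CONSTANS, had 64.8, 72.8, 70.6 and 80.9 at 2 h and 8.19, 41.4, 21.7 and 31.9 at 24 h (log2 change -1.30 ± 0.23, adjusted p = 0.00027). AT5G61590 (DEWAX), an ERF factor that represses wax synthesis, had 329, 215, 264 and 287 at 2 h and 133, 113, 78.1 and 122 at 24 h (log2 change -1.23 ± 0.17, adjusted p = 1e-05). AT2G28720, a histone H2B, had 116, 72.7, 83.2 and 95.2 at 2 h and 28.4, 28, 29.7 and 38.4 at 24 h (log2 change -1.29 ± 0.19, adjusted p = 1.9e-05). These 3 fell to less than their lowest 2 h value in all 4 samples, which was a condition for the 25 largest falls. The 24 h mean of AT2G47890 (25.8) lay below the filter signal of 27.8.

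Enzymes and a transporter were among the named falls too. AT4G34950, of the major facilitator family, had 193, 318, 311 and 273 at 2 h and 46.6, 65.1, 70.7 and 101 at 24 h (log2 change -1.83 ± 0.22, adjusted p = 8.5e-07). AT1G70820, of the phosphoglucomutase family, had 282, 211, 181 and 155 at 2 h and 68.6, 30.1, 45.6 and 54.9 at 24 h (log2 change -1.87 ± 0.16, adjusted p = 4.8e-09). AT2G39920, of the acid phosphatase family, had 46.1, 49.6, 44.7 and 58.7 at 2 h and 13.1, 9.56, 8.04 and 6.14 at 24 h (log2 change -1.64 ± 0.17, adjusted p = 7.5e-08) and was near background at 24 h. Its 24 h level lay below the filter signal of 27.8, which the gene passed only by its mean over all groups. AT1G30820, a CTP synthase, had 302, 419, 361 and 367 at 2 h and 117, 132, 163 and 140.5 at 24 h (log2 change -1.33 ± 0.13, adjusted p = 1.8e-08). The P450 gene CYP71B26 had 218, 243, 206 and 262 at 2 h and 86.5, 107, 74.8 and 112 at 24 h (log2 change -1.22 ± 0.14, adjusted p = 8.1e-07).

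AT3G62550, of the universal stress protein family, had 80.6, 62, 58.2 and 67.7 at 2 h and 20.2, 19.3, 20.7 and 19.7 at 24 h (log2 change -1.36 ± 0.15, adjusted p = 2.1e-07). AT4G30660, of a low-temperature and salt responsive family, went from 303 ± 62.5 at 2 h to 121 ± 21.6 at 24 h (log2 change -1.25 ± 0.13, adjusted p = 7.2e-08). AT3G51660, of the family of macrophage migration inhibitory factor, went from 168 ± 36.1 at 2 h to 50.4 ± 2.51 at 24 h (log2 change -1.54 ± 0.13, adjusted p = 3.2e-09). The other 6 named falls had log2 changes between -1.56 and -1.15. They were the alpha/beta hydrolase genes AT2G39400 and AT1G49650, the zinc finger gene AT5G27280, the aspartyl protease gene AT5G19120, the RING gene AT3G47160 and AT2G15960. The 24 h means of AT3G62550 (19.9) and AT5G27280 (22.6) lay below the filter signal of 27.8.

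Photosynthesis genes, by contrast with the pigment genes, had no fall that passed. All 5 tested photosystem and electron transport genes had positive changes, from 0.17 (PSBY) to 0.24 (ATPC1), and none passed. LHCB4.1, a minor light harvesting protein, had 3442, 3615, 2531 and 3151 at 2 h and 4901, 3751, 3317 and 3832 at 24 h (adjusted p = 0.14). With quantile normalization the photosystem median turned from 0.23 to -0.04 and that of light harvesting went from 0.28 to 0.01, so no direction is given for either list. In PSAE-1 the 2 h replicate 3 stood apart at 2131 against 2794 to 2899.

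In the Calvin cycle list of 24 loci 2 of 4 tested genes rose, beside 5.85% of all probe sets. RCA, Rubisco activase, had 3094, 3208, 2226 and 2905 at 2 h and 5049, 3762, 3624 and 3663 at 24 h (log2 change 0.49 ± 0.13, adjusted p = 0.014). SBPASE, sedoheptulose bisphosphatase, had 1890, 1785, 1487 and 1770 at 2 h and 2692, 2245, 1847 and 2095 at 24 h (log2 change 0.35 ± 0.11, adjusted p = 0.041). Replicate 1 at 24 h was the highest in both, and without it neither passed (0.074 for RCA and 0.18 for SBPASE). Dropping 2 h replicate 3 (0.073) or fitting both groups alone (0.054) ended the call of RCA as well. That of SBPASE ended in 12 of 22 alternatives, including quantile normalization (0.094) and no filter (0.082). It ended on dropping 24 h replicate 2 (0.086) or replicate 4 (0.057), and on dropping 2 h replicate 2 (0.06), replicate 3 (0.15) or replicate 4 (0.068).

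PRK, phosphoribulokinase, had 1930, 1828, 1395 and 1731 at 2 h and 3245, 2162, 1689 and 1970 at 24 h, which did not pass (adjusted p = 0.12) except without 24 h replicate 3 (0.033) or with both arrays of 24 h replicate 1 as separate samples (0.037). The plastid phosphoglycerate kinase AT1G56190 had -0.17 ± 0.16 (adjusted p = 0.56). In photorespiration 1 of 4 tested genes rose, HPR, hydroxypyruvate reductase, with 1615, 1295, 1242 and 1364 at 2 h and 2948, 1960, 1638 and 1810 at 24 h (log2 change 0.57 ± 0.13, adjusted p = 0.0042). Its adjusted p was 0.052 with only the compared groups in the fit. The glycine decarboxylase genes AT1G11860 and AT1G32470 and the glycerate kinase gene AT1G80380 had changes between 0.01 and 0.07.

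The 40 lists held 617 loci. A probe set with that gene's name was found for 122 and tested for 105. Of these 19 rose and 14 fell, beside the 5.85% and 6.29% of all tested probe sets given above. The lists were drawn up with results of these data known, so nothing is read from that share. In the cell cycle list none of 4 tested genes passed, with AUR1, an Aurora kinase of dividing cells, at 111, 142, 151 and 133 at 2 h and 130.5, 124, 162 and 126 at 24 h (adjusted p = 0.95). In the stomatal lineage none of 3 did, the changes of SPCH, FMA and STOMAGEN lying between -0.06 and 0.12. No tested member passed in the lists of senescence (WRKY53 and WRKY22), defence (PDF1.2 and STZ), glucosinolates (UGT74B1 and BCAT4), ascorbate peroxidases (SAPX and TAPX) or ribosome biogenesis (AT3G12860 and AT3G05060). Of these, SAPX passed without 2 h replicate 1 (0.043) and UGT74B1 without 2 h replicate 1 (0.046). PDF1.2, a jasmonate-responsive defensin, varied most between samples of a group, with 90.9, 54, 355 and 127 at 2 h and 68.4, 249, 411 and 133 at 24 h (log2 change 0.48 ± 0.72, adjusted p = 0.75).

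**Figure D3:**
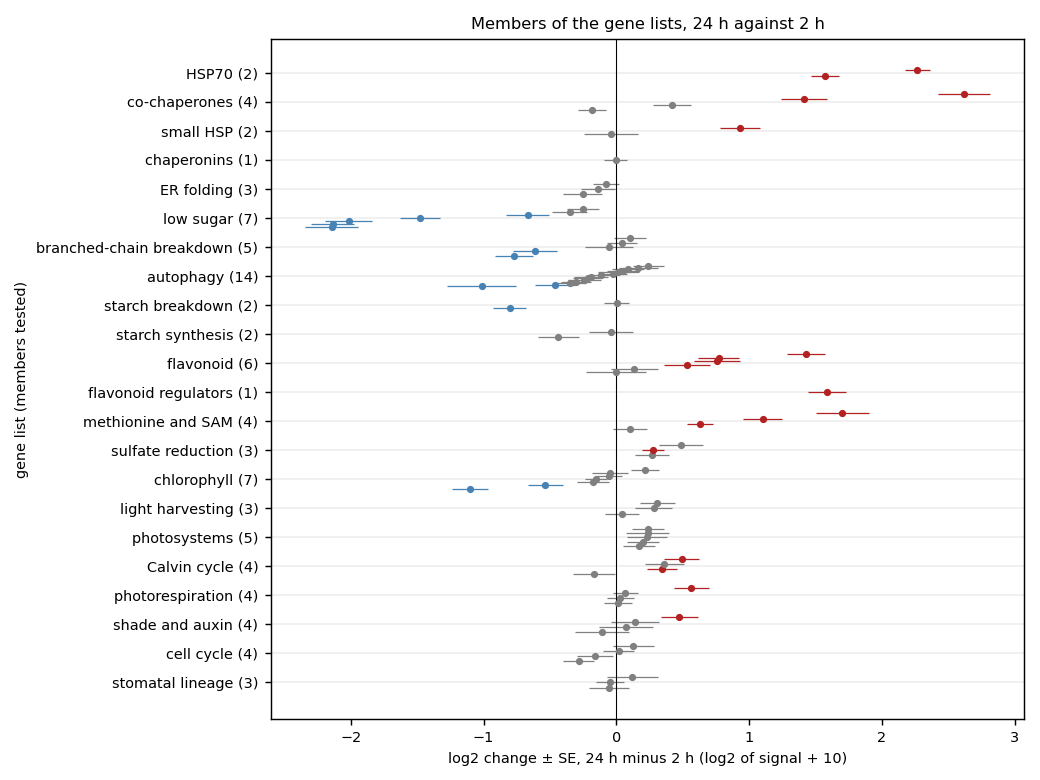
Log2 change from 2 h to 24 h with its SE for each tested member of 22 gene lists (horizontal axis, log2 of signal plus 10), 1 list a row with its number of tested members. Red members were higher at 24 h, blue members lower and grey members not called, and the low sugar row lies to the left while the HSP70 and flavonoid rows lie to the right.

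The comparison of 48 h with 4 h also sets a later day against the first hours of treatment and shares no array of its groups with that of 24 h and 2 h. Both came from a single fit and so share its estimate of the spread. In that comparison 3801 of 13647 probe sets were called (27.9%), 1907 higher (14%) and 1894 lower (13.9%) at 48 h. Of the 798 rises at 24 h, 657 (82.3%) were also called higher at 48 h against 4 h, which is 34.5% of the 1907 there, and 2 were called lower. Of the 859 falls, 696 (81%) were also called lower, 36.7% of the 1894 there, and 0 were called higher by limma, also 0 at an unadjusted p under 0.05. A positive change at 48 h against 4 h was found for 769 of the 798 rises (96.4%), against 51.8% of all tested probe sets. Of the changes of at least 2-fold, 65 of 67 rises and 66 of 69 falls were called the same way. With each comparison fitted on its own groups alone, 469 of 552 rises (85%) and 474 of 574 falls (82.6%) were called the same way in both.

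**Figure D4:**
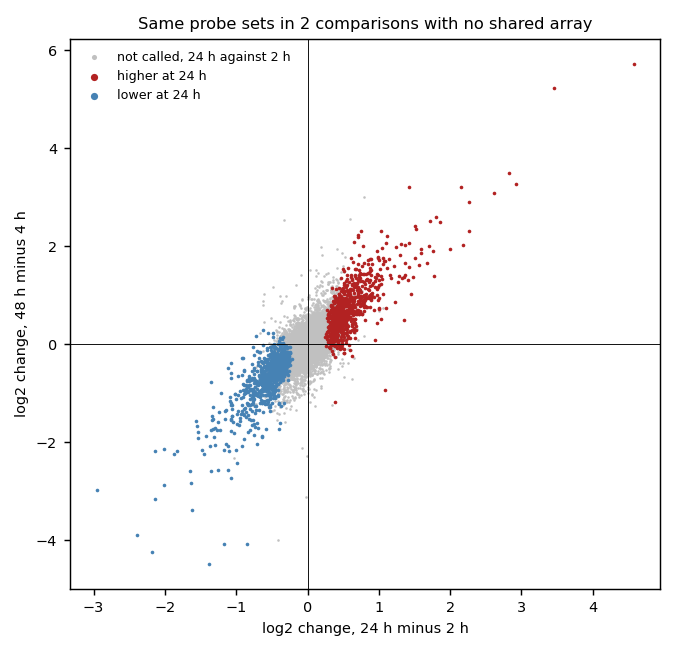
Log2 change at 48 h against 4 h (vertical axis) against that at 24 h against 2 h (horizontal axis) for the 13647 tested probe sets, both of signal plus 10. Red and blue points were called higher (798) and lower (859) at 24 h, and 769 of the red points lie above the horizontal zero line.

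Of the named genes, 24 of the 25 rises and all 25 falls were called the same way at 48 h against 4 h. AT1G04770 was the exception, with 0.52 ± 0.20 (adjusted p = 0.053). AT3G09440 had 2.30 ± 0.09 there and AT5G48570 3.09 ± 0.20. Falls were larger there in CCL (-3.89 ± 0.15) and in AT1G56300 (-4.07 ± 0.16), whose mean at 4 h was 392 ± 47.5 against 57.5 ± 12.5 at 2 h. PORB had -2.18 ± 0.14 and GI -1.72 ± 0.12. Of the 19 list members that rose, 18 were called higher, the exception being RCA (0.10 ± 0.13, adjusted p = 0.65), and all 14 that fell were called lower. Of all rises 82.3% and of all falls 81% were called the same way. The lists were drawn up with results of these data known, so nothing is read from the counts of their members. Whether the sizes of change differ between both comparisons was not tested.

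The levels at the other times give the course of these genes, with means ± SD over 4 replicates. AT5G48570 had 31 ± 8.05 after 4 h and 15.1 ± 2.06 after 12 h. From 259 ± 81.8 at 24 h its mean moved to 343 ± 93.1 at 48 h and 321 ± 78.3 at 96 h. Hsp70-2 stood at 101 ± 7.08 at 12 h and 386 ± 41.4 at 96 h, and the latter was above 24 h by 0.57 ± 0.11 (adjusted p = 0.00074). HYH was low after 4 h (17.4 ± 1.5) and after 12 h (21.5 ± 4.04) and still high after 96 h (109.9 ± 15.8). AT1G06000 had 123 ± 34.8 after 12 h, 902 ± 109 after 24 h and 813 ± 50.6 after 48 h. All 4 were thus high in the 24, 48 and 96 h samples and low in the earlier ones.

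Most of the low sugar genes that fell had their highest means at 12 h. AT2G30600 did not, with 264 ± 40.6 at 4 h and 110 ± 26 at 12 h. AT3G15630 stood at 376 ± 66.9 at 4 h and 792 ± 143 at 12 h, against 40.8 ± 4.81 at 24 h and 31.1 ± 7.96 at 96 h. AT1G56220 reached 1355 ± 173 and AKINBETA1 484 ± 114 at 12 h. DPE1 followed the same order, with 256 ± 25.1 at 12 h and 39.7 ± 6.95 at 96 h. PORB was highest at 4 h, at 3056 ± 423, and stood at 579 ± 80.1 at 96 h. Among the 50 named rises and falls the largest change between 24 h and 48 h was 0.52 in size on the log2 scale, and 8 were called between 24 h and 96 h. Both of these comparisons share the 24 h samples. The share of all tested probe sets called in them is not given here, so nothing is read from that count. AT1G54050, of the small heat shock list, stood at 201 ± 25.4 at 96 h, lower than at 24 h by -1.02 ± 0.15 on the log2 scale (adjusted p = 6.8e-05).

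**Figure D5:**
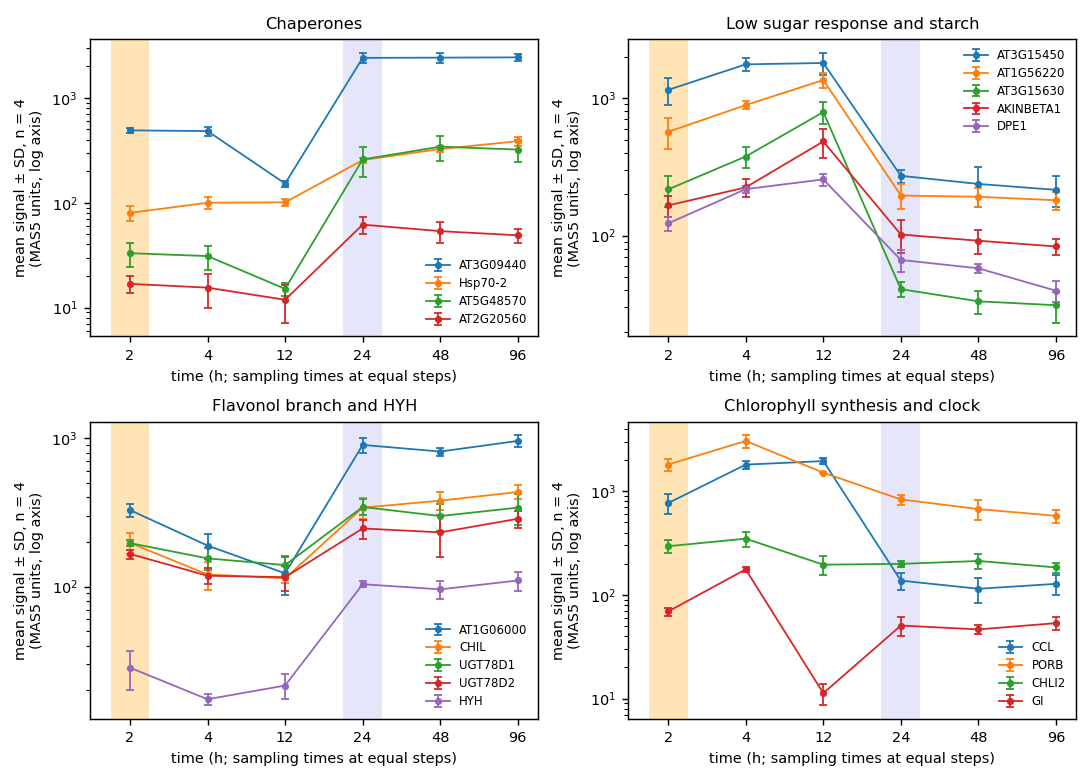
Mean signal ± SD (n = 4, log axes, MAS5 units) of 18 genes in developing leaves at 2, 4, 12, 24, 48 and 96 h, drawn at equal steps, with the 2 h and 24 h columns shaded. The chaperone and flavonol panels are high from 24 h on (AT3G09440 at 2411 at 24 h), and the low sugar panel is high at 12 h and low from 24 h on (AT1G56220 at 196 at 24 h).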

How the data were processed

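Affymetrix ATH1 arrays were deposited as 1 table of linear intensity values, made by the authors with MAS5 per the submitters' processing notes. Its version and any further step are not given in the sources used here. Of 22810 probe sets, 64 controls were left out. The gene table names a single gene for 13513. From these values log2(signal + 10) was computed, and probe sets whose mean over all 26 replicates exceeded the 40th percentile (a signal of 27.8) were tested. A probe set dim at 2 h or at 24 h could thus pass through groups in which it was bright. All 7 groups, 26 replicates with 19 residual degrees of freedom, entered a single fit by lmFit and trended eBayes of limma 3.58.1 (R 4.3.3). P-values are two-sided and adjusted by Benjamini and Hochberg over 13647 probe sets, with a threshold of 0.05, and log2 changes are given ± SE. They are of the signal plus 10 and understate the change of dim genes. The number of arrays limits the precision.

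The pair of arrays that carry the title of 24 h replicate 1 entered as their mean log2 value. One array whose note reads ES in place of AS, letters that stand undefined, was put in no group. Named genes are the 25 largest rises and falls past the threshold with 1 gene name, no overlap between groups and a higher mean above the median of all probe sets (43.9), and list members that passed or, up to 4 a list, had the highest mean. The comparison and the lists were chosen with earlier results of these data known. No promoter or protein sequence was used here. Same-numbered replicates correlated by 0.378, 0.006, 0.152 and 0.052 in their deviations, and replicates of unlike number by -0.264 to 0.206. The value of replicate 1 was the highest of all. The numbers were not taken as pairs, and a replicate block was tried as an alternative. The fit was also run on simulated data whose noise was independent between probe sets and arrays, and nothing is read from that run here.

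Alternatives tried were a pseudocount of 1 or 50, the filter dropped or raised to the 60th percentile, median centring, quantile normalization, array weights, a fit of the compared groups alone, eBayes with no trend, a replicate block, the first, second or both arrays of 24 h replicate 1 separately, and each replicate left out. Leaving out replicate 1 of all groups, the second actin control, the alternatives for the 2-fold and overlap counts and the gene families in the closing section were chosen after seeing the data.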

Additional observations from a re-analysis of the deposited data

Results flagged for a closer look

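Within the groups of 4, 17 of 248 groups of the named genes and the actin ratio (6.85%) had 1 sample far from the other 3 by Dixon's test, where chance alone gives about 1 in 20. Replicate 1 at 24 h gave 6 of them. It was high in RCA (5049 against 3624 to 3762), AT1G11860 (1815 against 1485 to 1534) and WRKY53 (28.2 against 19.8 to 20.8), and low in Hop2 (197.9 against 294.9 to 313.1), SAPX (238.4 against 338.6 to 361.8) and SBE2.2 (112.2 against 183.3 to 189.3). Replicate 3 at 24 h gave 4, being high in MT1C (74.2 against 32.5 to 37.2), AT1G30070 (223.6 against 204.3 to 207.3) and AUR2 (97.9 against 70.8 to 74.7) and low in FMA (38.8 against 60.4 to 65.4). Replicate 2 at 24 h was high in Cpn60beta2 (1280 against 1124 to 1142).

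At 2 h, replicate 1 was high in CCL (1012 against 666.6 to 712.5) and IAA29 (48.9 against 17.3 to 20.2) and low in AT1G49650 (168.2 against 200.3 to 207). Replicate 2 was low in AT2G41410 (116.6 against 223.2 to 241.3), and replicate 3 was low in UGT78D1 (181.3 against 200.7 to 202.4) and PSAE-1 (2131 against 2794 to 2899).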

How the results depend on the processing

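Under all 22 alternatives the total, higher and lower calls for 24 h against 2 h stayed within 1.5 times those reported. The total of 1657 ranged from 1126, with only the compared groups in the fit, to 2078, with both arrays of 24 h replicate 1 as separate samples, and from 1325 to 1605 when a replicate was left out. Rises ranged from 552 to 1030 (636 to 779 with a replicate left out) and falls from 574 to 1048 (676 to 826). Changes of at least 2-fold numbered 64 (37 rises and 27 falls) with a pseudocount of 50, and otherwise 110 to 179 (130 to 147 with a replicate left out, 64 to 74 for rises and 64 to 75 for falls). Probe sets without overlap numbered 3901 with no replicate 1 in any group and 2455 to 3029 with a replicate left out, where fewer samples make overlap rarer, and otherwise 1636 to 2459. For 48 h against 4 h the total ranged from 3041 to 4119 (3288 to 3542). Counts shared by both comparisons ranged from 469 to 755 for the rises (539 to 648) and from 474 to 794 for the falls (565 to 681). With the replicate block the totals were 1907 and 4119; the numbers were not shown to pair the samples, and not every sample correlated best with its own number. The lower actin ratio at 24 h (-0.69) did not hold for GAPDH (0.076, exact permutation p = 0.8) or the second actin control (0.126, exact permutation p = 0.4), where the difference had the opposite sign, and the cause was not tested. Of the 50 named rises and falls 49 kept their call in all alternatives in which they were tested, MT1C being the exception. Not every gene was tested in all 22, and AT2G39920 was tested in 14. Of 53 named list members that were not called, 45 were called in no alternative. Signal near background limits what can be seen in dim genes such as AT2G39920 and AT2G20560.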

Other observations

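The families below were picked after their values had been seen, so their counts are descriptions without a test of the family. Beside all of these counts stand 5.85% of all tested probe sets that rose and 6.29% that fell. The HSP70 exchange factors of the Fes1 family moved in opposite directions. Fes1A rose, with 93.5, 89.8, 109.7 and 96.2 at 2 h and 165, 209, 203 and 188 at 24 h (log2 change 0.91 ± 0.14, adjusted p = 4e-05), while Fes1B fell, with 110.3, 114, 119 and 114 at 2 h and 55.3, 41.4, 46.8 and 62.7 at 24 h (log2 change -1.03 ± 0.14, adjusted p = 5.2e-06), and Fes1C fell by a smaller amount (-0.50 ± 0.10, adjusted p = 0.0015). The actin-binding LIM proteins split too, with falls of WLIM2a (-0.84 ± 0.13, adjusted p = 4e-05) and WLIM1 (-0.63 ± 0.09, adjusted p = 1.9e-05) and a small rise of WLIM2b (0.33 ± 0.10, adjusted p = 0.026). At 48 h against 4 h the Fes1 genes and both falling LIM genes went the same way (Fes1A 0.98 ± 0.14, Fes1B -1.80 ± 0.14, WLIM2a -1.79 ± 0.13), and WLIM2b had -0.01 ± 0.10 (adjusted p = 0.98). Of 7 tubulin genes TUB5 fell, with 415, 402, 442 and 376 at 2 h and 174, 216, 219 and 213 at 24 h (log2 change -0.96 ± 0.12, adjusted p = 3.9e-06), and TUA1 rose (0.42 ± 0.12, adjusted p = 0.018). Cytochrome c genes differed as well, CYTC-2 rising from 151 ± 13 at 2 h to 261 ± 53.4 at 24 h (log2 change 0.74 ± 0.12, adjusted p = 8.9e-05), CYTC-1 at -0.03 ± 0.08 (adjusted p = 0.85) and the plastid cytochrome CYTC6A falling (-0.57 ± 0.10, adjusted p = 0.00017).

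Of 7 tested genes with symbols that begin with HTB (histone H2B), HON (linker histone) or 3xHMG (HMG box), 4 fell, 3 did not pass and none rose. Their median was -0.47, and of all tested probe sets 6.29% fell and 5.85% rose. Genes of these kinds under other names were not counted. HTB11 had 379.7, 323, 377 and 363 at 2 h and 181, 187, 248 and 190.5 at 24 h (log2 change -0.82 ± 0.12, adjusted p = 1.7e-05) and HTB4 648, 616, 532 and 536 at 2 h and 427, 349.7, 423 and 369 at 24 h (log2 change -0.56 ± 0.11, adjusted p = 0.0011), while the Aurora kinases and PRL (MCM7) of the cell cycle list did not pass. Both FtsZ2 genes of plastid division fell, FTSZ2-1 (-0.39 ± 0.08, adjusted p = 0.0024) and FTSZ2-2 (-0.31 ± 0.10, adjusted p = 0.039). Among wall-loosening genes, XTH32 had 379, 393, 364 and 365 at 2 h and 563, 649.9, 574 and 678 at 24 h (log2 change 0.70 ± 0.10, adjusted p = 1e-05), EXPB1 went from 75.2 ± 11.5 at 2 h to 122 ± 11.4 at 24 h (log2 change 0.63 ± 0.13, adjusted p = 0.0018) and EXPA15 from 145 ± 15.2 at 2 h to 216 ± 34 at 24 h (log2 change 0.54 ± 0.12, adjusted p = 0.003), 2 of 6 expansins passing.

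Of 68 tested genes of the plastid chromosome, 64 (94.1%) had a positive change, against 52.4% of all tested probe sets, with a median of 0.25, though only 2 were called by limma, both higher (11 at an unadjusted p under 0.05). With quantile normalization 62 were positive, with a median of 0.15, 0 were called and 4 had an unadjusted p under 0.05. With median centring 63 were positive, with a median of 0.22, 0 were called and 10 had an unadjusted p under 0.05. A pair of samples stood apart. The 24 h replicate 1 was the highest at 24 h in 39 of the 68, as in atpB (6081 against 4052 to 4250), and the 2 h replicate 3 the lowest at 2 h in 43, as in atpB (2527 against 3556 to 3888). The brightest 100 probe sets held 12.38% and 13.66% of the signal on both arrays of the former and 7.67% on the latter. Without 24 h replicate 1, 57 were positive with a median of 0.16, and 0 were called by limma (12 at an unadjusted p under 0.05). Without 2 h replicate 3, 56 were positive with a median of 0.17, and 0 were called (7 at an unadjusted p under 0.05).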
